A study of Mus musculus with 2 samples.

Results

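The enzymes of glycolysis, the pentose phosphate pathway and the tricarboxylic acid (TCA) cycle were examined through a list of 49 mouse genes, out of 54438 genes in 2 RNA-seq libraries. Members were taken by gene symbol, and a gene's value is the sum over its listed transcripts. They form 8 groups: preparatory glycolysis (9 genes), the PFKFB regulators (3), payoff glycolysis (6), lactate dehydrogenase (2), pyruvate dehydrogenase with its kinases (4), the pentose phosphate pathway (7), the TCA cycle (12) and enzymes linked to NADP, malate or citrate (6). The study is on basal cells of the mouse mammary gland with and without Pd-l1. Both libraries, titled W1 and W2, come from mammary gland of wild type C57BL/6 mice aged 8 weeks and carry the source label of mammary basal cell. Flow-sorted cells were lysed directly in a Smart-seq reagent before RNA extraction, and a stranded KAPA kit served for library construction. Apart from the titles the labels are the same, so neither library could be assigned to a Pd-l1 class. There is 1 library of each and no replicate, so differences are described without a test. The sources used here do not state how many mice and cells were used, or with which antibodies and gates.

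Depth, in recovered reads, was 3065849 for W1 and 3826943 for W2. The label of basal cell was set against marker genes. The 10 basal markers summed to 60.0 TPM (transcript abundance per length, scaled to a sum of 1000000) in W1 and 40069 TPM in W2. Krt5 and Cnn1 had no reads in W1, and Trp63 had none in either library. The 10 endothelial markers summed to 7078 TPM in W1 and 4.78 TPM in W2, where all but Plvap were without reads. The 10 luminal markers summed to 259 TPM in W1, of which Cd24a alone held 251 TPM, and 5020 TPM in W2. The 7 fibroblast markers summed to 3.19 TPM in W1 and 206 TPM in W2. Library W1 therefore goes against its label, and it is called library W1 throughout. The 8 leukocyte markers summed to 80.1 TPM in W1 and 0.267 TPM in W2. Lyz2 (46.6 TPM) and Cd79a (32.8 TPM) held nearly all of this in W1. There Ptprc had 6 reads and Cd68 had 1, and Cd79b, Cd3e, Itgam and Adgre1 had none. These marker levels move with every difference between the libraries given here, and their part in it was not tested. In bulk RNA, fewer cells of a type and less RNA per cell cannot be told apart.

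Glycolysis splits glucose into pyruvate in an energy-consuming preparatory phase and an energy-yielding payoff phase. Pyruvate is then reduced to lactate or enters mitochondria, where the pyruvate dehydrogenase complex converts it to acetyl-CoA for the TCA cycle. The pentose phosphate pathway branches off at glucose 6-phosphate and yields NADPH and ribose 5-phosphate. Many steps are carried out by isozymes from separate genes, and tissues differ in which isozyme they use. In mammary epithelium these pathways are known for supplying energy and the precursors of milk fat and lactose.

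Not all members could be counted equally well, since transcripts that share their sequence with others seldom had reads in the deposited values. A measure of this is the number of a transcript's own 50-mers, the 50-base words found in no other listed transcript on the same strand. The 49 genes had 363 listed transcripts, 1 to 21 for a gene, and 68 of these transcripts had reads. None of the 44 member transcripts without own 50-mers had a read. With 1 to 100 own 50-mers, 6 of 120 had reads (5.0%), and with more, up to 500, 26 of 142 did (18.3%). Above 500, 36 of 57 had reads (63.2%), and among protein-coding ones 20 of 23 did (87.0%). The same shares over the transcripts of all genes were 1.49%, 3.85%, 16% and 36.4%.

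**Figure D1:**
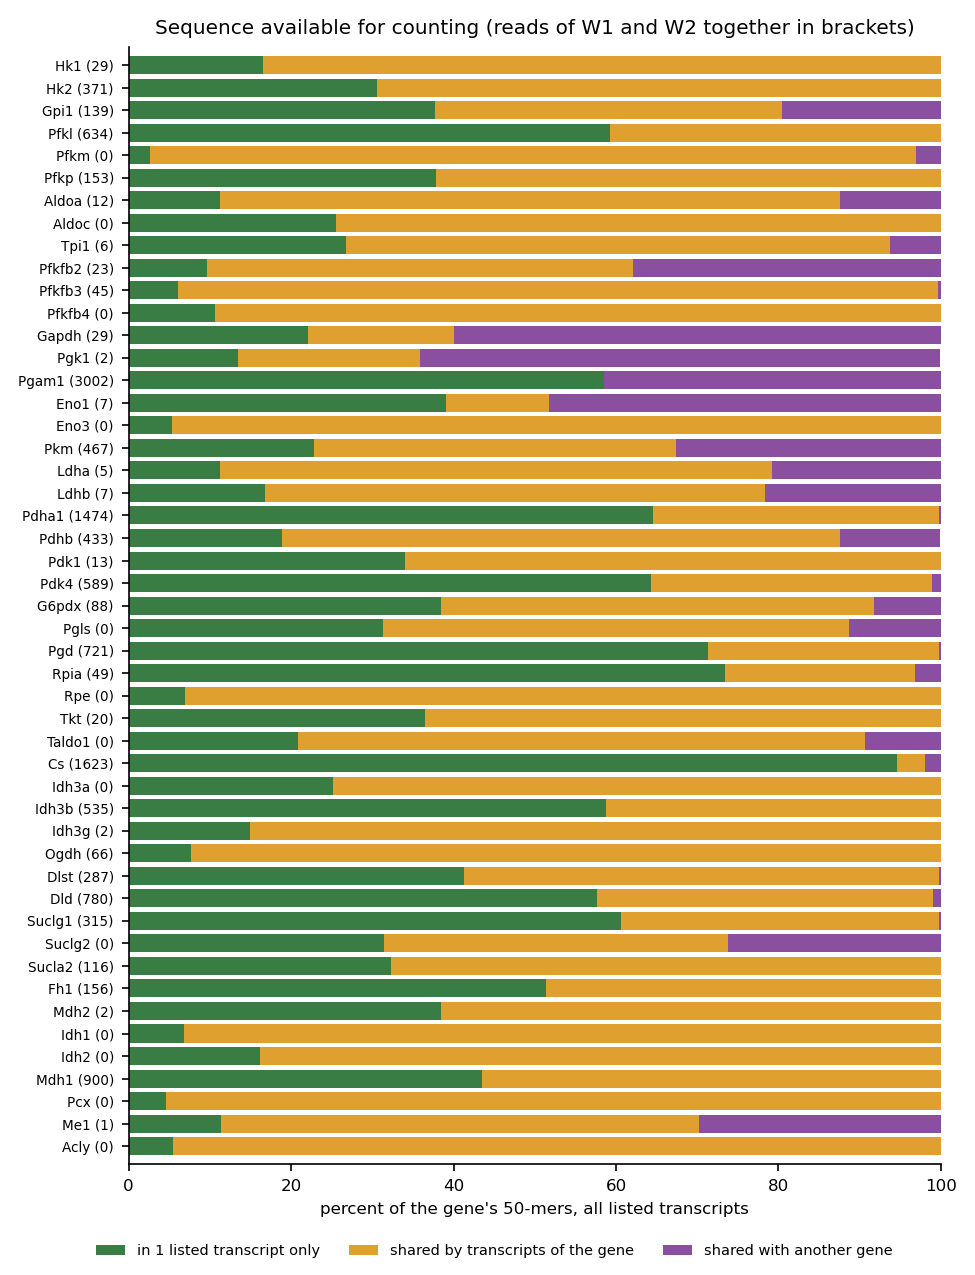
Share of each gene's 50-mers (horizontal axis, percent, over all listed transcripts) that lies in 1 listed transcript (green), is shared by transcripts of the gene (orange) or is shared with another gene (purple), with the reads of both libraries together in brackets after the symbol. Several genes with short green bars, among them Pfkm, Eno3, Rpe, Idh1, Pcx and Acly, have 0 reads, while Pfkfb3, Ogdh and Pfkfb2, at 6.05%, 7.65% and 9.68%, have 45, 66 and 23. Cs, with 94.6% in 1 transcript, has 1623.

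On this measure the members fall into 3 classes. A total of 23 genes had a protein-coding transcript with over 500 own 50-mers, and 21 of them had reads. In another 21 genes the isoforms overlap so far that no coding transcript reached this number, and 10 of them had reads. In the last 5 genes, Pfkfb2, Gapdh, Pgk1, Pkm and Me1, no coding transcript had over 500 either. At least 25% of their coding 50-mers also occur in other genes, and all 5 had reads. Eno1 (64.6%), Pgam1 (41.5%), Pdhb (30.3%) and Suclg2 (26.8%) reach that share too, but their own 50-mers placed them in the first class. Of the 13 members without reads in either library, 11 belong to the overlapping class: Pfkm, Pfkfb4, Eno3, Pgls, Rpe, Taldo1, Idh1, Idh2, Idh3a, Pcx and Acly. For these, 0 reads cannot be read as absence of expression. Own 50-mers do not settle it, since transcripts of Idh3a and Pgls not annotated as coding had up to 2370 and 1805 and also had no reads. Aldoc, the aldolase of brain, and Suclg2, the GTP-forming succinyl-CoA ligase subunit, had coding transcripts with 1267 and 1133 own 50-mers and still had no reads.

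Sequence copies were the second limit, and Gapdh, Pgk1 and Eno1 show it best. Gapdh (glyceraldehyde 3-phosphate dehydrogenase) had 81.9% of its coding 50-mers in other genes, Pgk1 (phosphoglycerate kinase) 68.0% and Eno1 (enolase of most tissues) 64.6%. The windows below, of 80 bases, were taken from a coding transcript of Gapdh and of Eno1 in GRCm38, and the capitals mark a 50-mer that recurs in other genes: 83 genes for Gapdh and 5 for Eno1. They lie in exon 4 of Gapdh (chr6:125162883-125162962, minus strand) and exon 8 of Eno1 (chr4:150246653-150246732, plus strand).
Gapdh: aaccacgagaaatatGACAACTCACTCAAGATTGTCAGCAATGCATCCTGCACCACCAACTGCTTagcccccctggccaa
Eno1: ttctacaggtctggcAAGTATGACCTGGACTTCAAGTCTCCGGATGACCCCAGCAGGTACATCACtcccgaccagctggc
A read made of the capitals could not be assigned to 1 gene from its sequence.

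Reads were in fact listed on the copies of Gapdh and Eno1. Those of Pgk1 held only 2 in W1 and 2 in W2, beside 2 and 0 on Pgk1 itself. Gapdh had 20 reads in W1 and 9 in W2, all on a transcript annotated with a retained intron. The 119 other genes that share at least 100 50-mers with it, 116 of them pseudogenes, held 2171 reads in W1 and 3613 in W2. The pseudogene Gm5559 alone had 1468 reads in W1 and 1791 in W2, with at most 50 own 50-mers. Gm7336 had 402 in W1 and 995 in W2 with 0 own 50-mers, so reads could be listed on a transcript without any. Eno1 had 7 reads in W1 and 0 in W2, whereas its 4 copies had 141 in W1 and 697 in W2. Those were all on the pseudogene Gm4735 (46 in W1 and 408 in W2) and on Eno1b (95 in W1 and 289 in W2). Suclg2 had no reads, and its pseudogene Gm15163 had 15 in W1 and 45 in W2. Pkm and Pgam1 show the opposite case, since their copies held fewer reads than the genes. Whether reads listed on a copy came from the enzyme gene was not tested, so the levels of Gapdh, Pgk1 and Eno1 are uncertain.

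**Figure D2:**
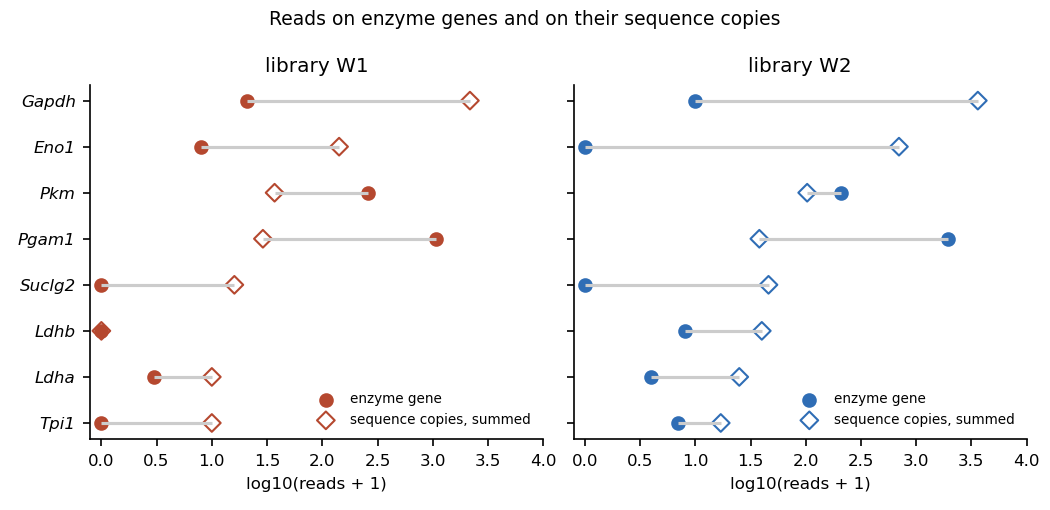
Recovered reads, as log10(reads + 1), on 8 enzyme genes (filled circles) and summed over their sequence copies (open diamonds), in W1 (left) and W2 (right). The copies exceed the gene for Gapdh (2171 against 20 reads in W1, 3613 against 9 in W2), Eno1, Suclg2, Ldha and Tpi1 in both libraries, and the gene exceeds its copies for Pkm and Pgam1.

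Summed over all members, levels were lower in W1. The 49 genes summed to 690 TPM in W1 and 1265 TPM in W2, from 4283 and 8818 reads, or 1402 and 2321 for every 1000000 reads. Genes reaching 1 TPM in 1 library or both were compared by the log2 ratio of TPM + 1 in W1 over W2, and 2-fold or more on that scale counted as a difference. Of the 31 members compared, 5 were higher in W1, where 34.7% of the 12587 genes compared were, and 14 were higher in W2, where 32.9% of all genes were. The other 12 lay within 2-fold, and in either direction 67.6% of all genes passed the rule. The median log2 ratio was -0.83 over the members and -0.07 over all genes compared. Among the 20 compared members with a well separated coding transcript, 3 were higher in W1, 10 in W2 and 7 in neither, with a median of -0.96. The class concerns a coding transcript, while these calls use all transcripts of a gene. Eno1 is among the 3 higher in W1, although its 7 reads all lay on a retained-intron transcript and its copies had more reads in W2. Hk1, also among the 3, had 21 of 29 reads on a retained-intron transcript. Gpi1, among the 10, had 79 of its 111 reads in W2 on one. A total of 16 of the 20 had a ratio below 0. The same share over all genes was not counted, and their median of -0.07 also lay below 0. The 8 compared members with overlapping isoforms gave 2 higher in W1 and 3 in W2, with a median of 0.09.

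Scale bears on these counts. A single 57-base transcript, Gm23935, took 27.7% of all TPM in W1 and 4.13% in W2. Setting the median ratio of the 6804 genes reaching 1 TPM on both sides to 0, a shift of -0.35, left 6 members higher in W1 and 11 in W2, with a member median of -0.47. On that scale 38.9% of all genes compared were higher in W1 and 27.7% in W2, with a median of 0.29. With reads scaled to a common total in place of TPM, 7 members were higher in W1 and 11 in W2, with a member median of -0.61. Of all genes, 39.2% were then higher in W1 and 28.9% in W2, with a median of 0.25.

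**Figure D3:**
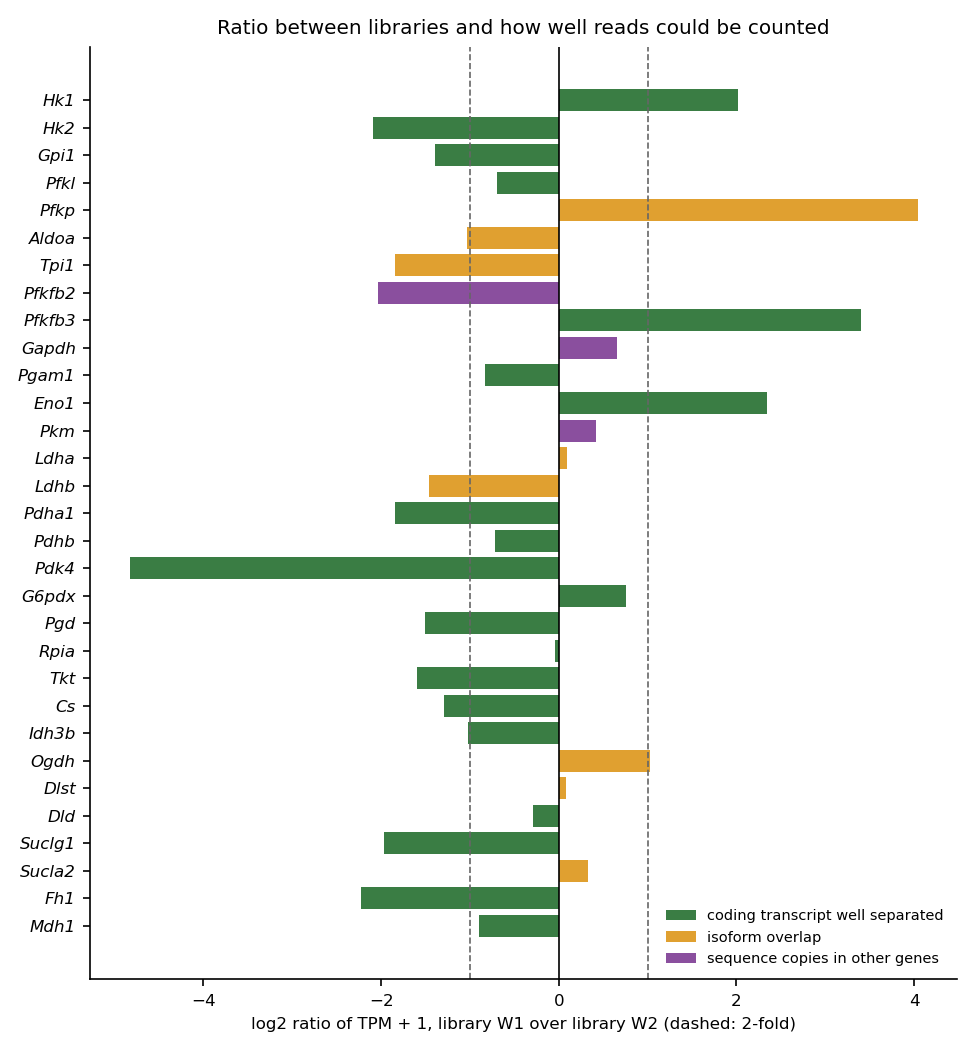
Log2 ratio of TPM + 1, W1 over W2, for the 31 members compared, with dashed lines at 2-fold and colours for how well reads could be counted. Bars point left for 20 of 31 members, and Pdk4 (-4.83) and Pfkp (4.04) are the extremes. The share of all genes with a ratio below 0 was not counted, and their median was -0.07.

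In the preparatory phase, 2 of 7 compared genes were higher in W1, 4 in W2 and 1 in neither. This count and those of the groups below stand beside 34.7% of all genes higher in W1 and 32.9% in W2. With so few genes in a group, no count is read as a result about its pathway. The hexokinases, which phosphorylate glucose, went opposite ways. Hk2, the hexokinase of muscle, fat and many tumours (ENSMUSG00000000628.10, chr6:82725025-82774454), had 3.59 TPM in W1 and 18.5 TPM in W2, from 60 and 311 reads on 1 coding transcript. By reads, scaled to TPM and not to a common total of reads, it was 5.15-fold higher in W2 (95% interval 3.89 to 6.91). The folds by reads below are on the same scale, and their intervals leave out the choice of scale. Hk1, the broadly expressed hexokinase (chr10:62268855-62379908), had 3.06 TPM from 29 reads in W1 and 0 reads in W2. That is 9.73-fold higher in W1 when 3 reads are taken as the floor, a value that leaves out counting error of the 29 reads. Of the 29 reads, 21 lay on a transcript annotated with a retained intron and 8 on a coding one. Hk1 thus made up 32.6% of 89 hexokinase reads in W1 (interval 23.0 to 43.3) and 0% of 311 in W2 (up to 1.18). By TPM its share in W1 was 46.0%, and over coding transcripts alone it was 14.7%, where Hk1 fell short of 1 TPM and was not compared.

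Glucose 6-phosphate isomerase, Gpi1, had 3.85 TPM in W1 and 11.7 TPM in W2. The isoforms did not move together. Its coding transcript had 21 reads in W1 and 32 in W2, while 1 retained-intron transcript had 0 reads in W1 and 79 in W2. Over coding transcripts alone the log2 ratio was -0.45, against -1.39 over all. Aldoa, the aldolase that splits fructose 1,6-bisphosphate in most tissues, had 3 reads in W1 and 9 in W2, and its ratio by reads had an interval of 0.744-fold to 17.1-fold for W2 over W1. Tpi1, triosephosphate isomerase, had 0 reads in W1 and 6 in W2. Both genes have overlapping isoforms, and how far this bears on their levels of 0 to 3.30 TPM was not tested.

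Phosphofructokinase, the committed step of glycolysis, differed in isozyme. Pfkl, the liver type, had 23.0 TPM in W1 and 37.6 TPM in W2, from 206 and 428 reads, a ratio within 2-fold on the scale of TPM + 1 (log2 ratio -0.69) but past it over coding transcripts alone (-1.12). Pfkp, the platelet type (chr13:6579768-6648777), had 35.4 TPM in W1 and 1.21 TPM in W2, from 148 and 5 reads. It was 29.8-fold higher in W1 by reads (interval 12.5 to 93.1). Pfkp reads were nearly all on transcripts with a retained intron, 144 of 148 in W1 and 3 of 5 in W2. In library W1, 69 of them lay on a transcript of 8681 bases and 60 on one of 702 bases. The coding transcripts of Pfkp had 4 reads in W1 and 2 in W2, on at most 127 own 50-mers. Pfkm, the muscle type, had no reads, on at most 144 own 50-mers. Pfkp took 41.8% of 354 phosphofructokinase reads in W1 (interval 36.6 to 47.1) and 1.15% of 433 in W2 (0.376 to 2.67). Its share was higher in W1 also by TPM (60.7% in W1, 3.13% in W2), though the sizes differ widely. Over coding transcripts alone the share of TPM was 12.6% in W1 and 0.418% in W2. That share rests on 4 reads of a 550-base transcript in W1 and 2 reads of a 4145-base transcript in W2. Transcript length enters it, so no difference is read from it.

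The PFKFB enzymes make and break fructose 2,6-bisphosphate, the activator of phosphofructokinase. Of the 3 members, each library had reads on 1, and Pfkfb1, which is not a member, had 0 reads in W1 and 7 in W2. Pfkfb3, the isozyme with the highest ratio of kinase to phosphatase activity (chr2:11471433-11554077), had 9.54 TPM from 45 reads in W1 and 0 reads in W2, 15.1-fold higher in W1 with the floor of 3 reads. A coding transcript held 32 of these reads, and 12 lay on a retained-intron transcript. Pfkfb2, known from heart (chr1:130689182-130729253), had 0 reads in W1 and 3.07 TPM from 23 reads in W2, 7.61-fold higher in W2 with the same floor. Its reads were all on 1 coding transcript, with 206 own 50-mers.

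**Figure D4:**
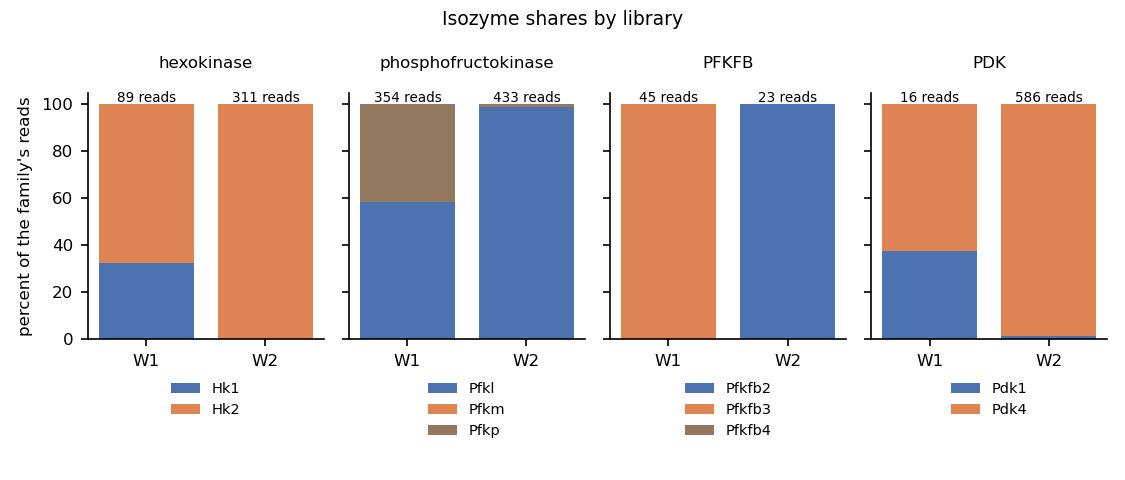
Share of each isozyme in the reads of the listed members of its family (vertical axis, percent) in W1 (left bars) and W2 (right bars). The reads of these members stand above each bar. Hk1, Pfkp and Pfkfb3 have their larger share in W1. Of the pair Pdk1 and Pdk4, Pdk4 makes up 62.5% of 16 reads in W1 and 98.8% of 586 in W2. Pdk2 (18 reads in W1, 145 in W2) and Pdk3 (64 in W1, 257 in W2) are not members and are left out.

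In the payoff phase, 1 of 4 compared genes was higher in W1 and 3 lay within 2-fold. Pgam1, phosphoglycerate mutase (ENSMUSG00000011752.7, chr19:41911923-41918660), is the only member with 1 listed transcript. It had 200.0 TPM in W1 and 356 TPM in W2, from 1077 and 1925 reads, and was 1.78-fold higher in W2 by reads (interval 1.65 to 1.91). Its log2 ratio was -0.83 on the scale of TPM + 1 and -0.52 with reads scaled to a common total. Gapdh had 2.01 TPM in W1 and 0.897 TPM in W2, with an interval of 0.974-fold to 5.58-fold for W1 over W2. Eno1, at 4.11 TPM in W1 and 0 in W2, passed the rule on 7 reads of a retained-intron transcript. Its copies had more reads in W2, as given above, so its direction is uncertain. Pgk1 had 2 reads in W1 and 0 in W2 and was not compared. The difference in level between Pgam1 and its neighbours in the pathway therefore stands beside a large difference in how many reads could be counted.

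Pyruvate kinase, the last step, is made in an M1 and an M2 form from 1 gene, Pkm (chr9:59656368-59679375), by a choice between 2 exons of 167 bases. Pkm had 37.5 TPM in W1 and 27.9 TPM in W2, from 261 and 206 reads (1.28-fold higher in W1, interval 1.06 to 1.54). Its sequence copies had 36 reads in W1 and 102 in W2. Whether these came from Pkm was not tested, so its direction is uncertain. The 2 exons are shown because the form is read from them, with capitals at the 64 bases that differ (61.7% identity). The M2 exon lies at chr9:59675568-59675734 and the M1 exon at chr9:59675029-59675195, both on the plus strand of GRCm38.
Pkm M2 exon: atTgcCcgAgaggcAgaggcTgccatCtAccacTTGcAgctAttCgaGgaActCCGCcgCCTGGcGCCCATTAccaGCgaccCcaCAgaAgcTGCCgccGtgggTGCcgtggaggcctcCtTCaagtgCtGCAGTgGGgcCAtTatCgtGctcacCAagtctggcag
Pkm M1 exon: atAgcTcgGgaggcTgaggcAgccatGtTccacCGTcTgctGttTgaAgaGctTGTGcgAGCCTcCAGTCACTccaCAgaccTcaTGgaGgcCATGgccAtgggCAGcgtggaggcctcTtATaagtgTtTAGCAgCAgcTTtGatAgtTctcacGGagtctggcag
The listed transcript with the M2 exon had 240 reads in W1 and 202 in W2, and the one with the M1 exon had 0 in W1 and 4 in W2. These counts cannot be read as a splicing ratio. The M2 transcript has 437 own 50-mers, of which 205 start in its exon 1 and 186 in its exon 11, and 46 touch the M2 exon. The M1 transcript has 38 in all, so far fewer reads could be listed on it. Another coding transcript had 4 reads and a retained-intron transcript 17 reads in W1, with 0 on both in W2.

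Lactate dehydrogenase, which interconverts pyruvate and lactate, was nearly out of reach. Ldha, the muscle-type subunit, had 2 reads in W1 and 3 in W2, and Ldhb, the heart-type subunit, had 0 in W1 and 7 in W2. Ldhb was called higher in W2, 2.32-fold with the floor of 3 reads, which leaves out counting error of its 7 reads. With 2 reads of the pair in W1 and 10 in W2, of which Ldhb took 70.0% (interval 34.8 to 93.3), no difference in subunit share was detectable at this depth. The pseudogene Gm5514 of Ldhb had 0 reads in W1 and 39 in W2.

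Among pyruvate dehydrogenase and its kinases, Pdk4 and Pdha1 were lower in W1. The 4 genes summed to 72.8 TPM in W1 and 246 TPM in W2, and of 3 compared, 0 were higher in W1, 2 in W2 and 1 in neither. Pdk4, the kinase that phosphorylates and inactivates the complex in fasting and fat use (ENSMUSG00000019577.6, chr6:5483351-5496309), had 0.947 TPM in W1 and 54.5 TPM in W2, from 10 and 579 reads. It was 57.5-fold higher in W2 (interval 31 to 121), and all its reads lay on 1 coding transcript with 2706 own 50-mers. Pdha1, the E1 alpha subunit of the complex (chrX:160122209-160138413), had 36.6 TPM in W1 and 133 TPM in W2, from 316 and 1158 reads, 3.64-fold higher in W2 (interval 3.21 to 4.14). Kinase and target were thus both higher in W2, though not by the same factor. Pdhb, the E1 beta subunit, had 34.8 TPM in W1 and 57.9 TPM in W2 and lay within 2-fold, as did the other subunits Dlat (log2 ratio -0.56) and Pdhx (-0.53). Pdk1 stayed below 1 TPM, with 6 reads in W1 and 7 in W2. Pdk4 took 62.5% of 16 reads of the pair Pdk1 and Pdk4 in W1 (interval 35.4 to 84.8) and 98.8% of 586 in W2 (97.6 to 99.5). This is not a share of all the kinases. Pdk2 and Pdk3, which are not members, had 18 and 64 reads in W1 and 145 and 257 in W2.

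In the pentose phosphate pathway, 4 of 7 genes were compared, of which 0 were higher in W1, 2 in W2 and 2 in neither. The oxidative branch was split. G6pdx, the entry enzyme, had 7.41 TPM in W1 and 3.96 TPM in W2, from 56 and 32 reads (1.76-fold higher in W1, interval 1.12 to 2.81). It lay within 2-fold on the scale of TPM + 1 and just past it, at a log2 ratio of 1.06, with the median ratio of all genes set to 0. Pgd, 6-phosphogluconate dehydrogenase, the second NADPH-forming step (chr4:149149991-149166771), had 27.2 TPM in W1 and 79.5 TPM in W2, from 183 and 538 reads. It was 2.92-fold higher in W2 (interval 2.46 to 3.47). Both have a well separated coding transcript, and they lie on opposite sides of a ratio of 1. In the non-oxidative branch, Rpia, ribose 5-phosphate isomerase, had 4.33 TPM in W1 and 4.48 TPM in W2, and its 24 and 25 reads allow a ratio of W1 over W2 from 0.529 to 1.76. Tkt, transketolase, had 0 reads in W1 and 2.03 TPM from 20 reads in W2, 6.62-fold higher in W2 with the floor of 3 reads. Pgls, Rpe and Taldo1 could not be read.

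In the TCA cycle, 10 of 12 genes had reads and 8 were compared. Of these, 1 was higher in W1, 4 in W2 and 3 in neither. Cs, citrate synthase, which feeds acetyl-CoA into the cycle (chr10:128337734-128362479), had 52.5 TPM in W1 and 130 TPM in W2, from 466 and 1157 reads, 2.47-fold higher in W2 (interval 2.21 to 2.75). Suclg1, the alpha subunit shared by both succinyl-CoA ligases (chr6:73248382-73276911), had 13.3 TPM in W1 and 54.8 TPM in W2, 4.14-fold higher in W2 (interval 3.12 to 5.56). Fh1, fumarase (chr1:175600374-175625635), had 2.75 TPM in W1 and 16.7 TPM in W2, 6.05-fold higher in W2 (interval 3.84 to 9.98). These 3 genes were read from coding transcripts, apart from 5 reads of Cs in W1. Idh3b, a subunit of the NAD-linked isocitrate dehydrogenase, had 35.5 TPM in W1 and 73.2 TPM in W2, just past the rule at a log2 ratio of -1.02. With the median ratio of all genes set to 0, Cs stood at -0.94 and Idh3b at -0.68, both then within 2-fold. It held 100% of 174 isocitrate dehydrogenase reads in W1 and 99.4% of 363 in W2. That share carries no isozyme choice, because Idh1, Idh2, Idh3a and Idh3g had at most 193 own 50-mers on any coding transcript, against 953 for Idh3b.

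Of the 3 subunits of the 2-oxoglutarate dehydrogenase complex, Ogdh passed the rule and Dlst and Dld did not. Ogdh, the E1 subunit (chr11:6291633-6356642), had 19.1 TPM in W1 and 8.84 TPM in W2, from 45 and 21 reads, a log2 ratio of 1.03. Every one of these reads lay on a single transcript of 779 bases annotated with a retained intron, and with a pseudocount of 5 the log2 ratio was 0.80, within 2-fold. Dlst, the E2 subunit, had 22.8 TPM in W1 and 21.5 TPM in W2, but on different transcripts. The retained-intron transcripts of Dlst had 121 reads in W1 and 38 in W2, and a transcript annotated for nonsense-mediated decay had 47 in W1 and 80 in W2. Dld, the E3 subunit shared with pyruvate dehydrogenase, had 47.0 TPM in W1 and 57.5 TPM in W2 and lay within 2-fold. Of the beta subunits of succinyl-CoA ligase, Sucla2, the ATP-forming type, had 11.6 TPM in W1 and 8.97 TPM in W2, from 55 and 61 reads, and Suclg2 had none. Mdh2, mitochondrial malate dehydrogenase, had 1 read in each library, and Idh3g had 0 in W1 and 2 in W2.

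Among the enzymes linked to NADP, malate or citrate, Mdh1 was the only one compared. This cytosolic malate dehydrogenase had 48.2 TPM in W1 and 91.1 TPM in W2, from 310 and 590 reads (1.89-fold higher in W2, interval 1.64 to 2.18), and lay within 2-fold on the scale of TPM + 1. Me1, malic enzyme, had 1 read in W1 and 0 in W2. Acly, which releases acetyl-CoA for fat synthesis from citrate, and Idh1, Idh2 and Pcx had no reads in either library, with at most 243 own 50-mers on a coding transcript.

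**Figure D5:**
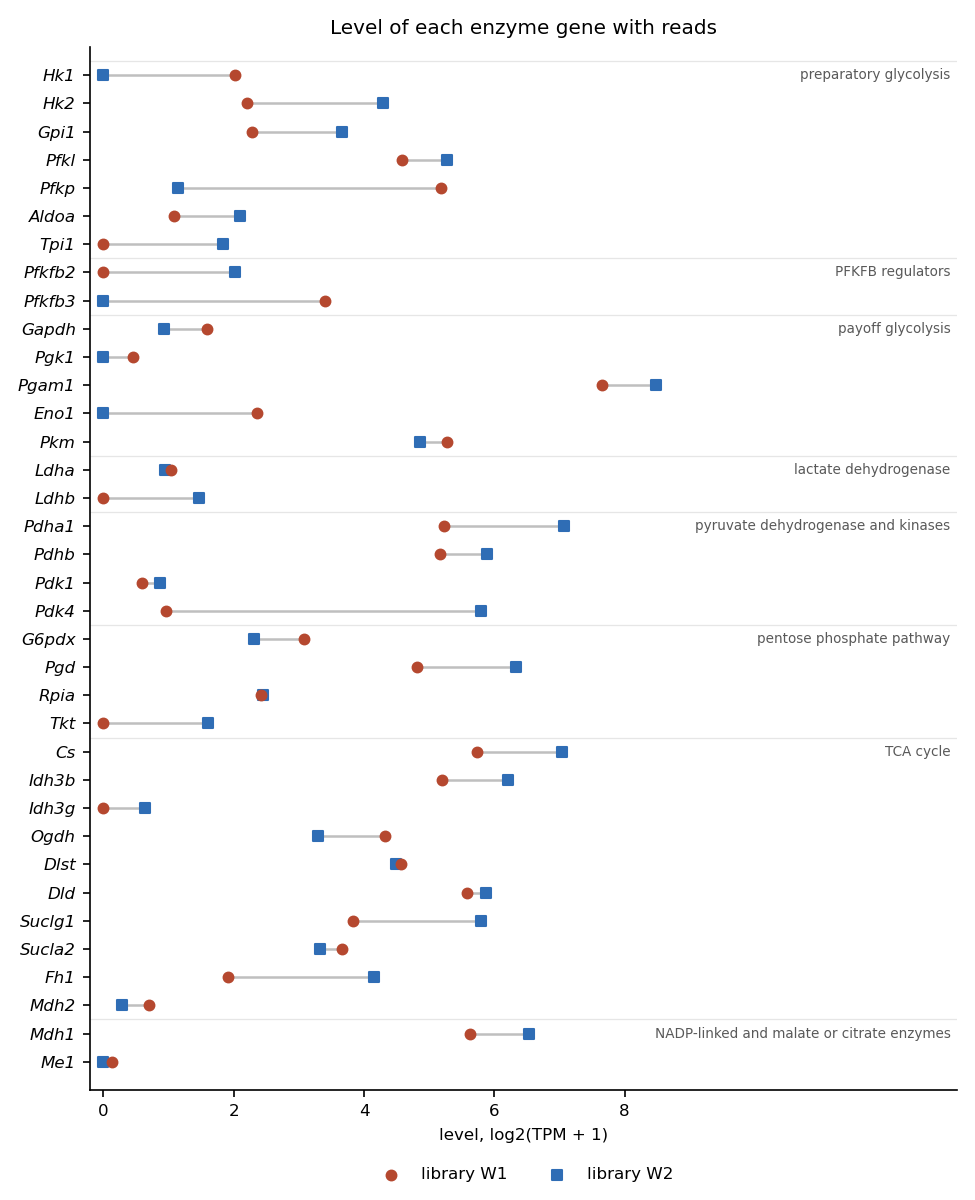
Level of the 36 members with reads, as log2(TPM + 1), in W1 (red circles) and W2 (blue squares), grouped by pathway. Pgam1 is highest in both libraries, Pdk4 and Pfkp show the widest gaps, and Hk1, Pfkfb2, Pfkfb3, Tpi1, Eno1, Ldhb and Tkt are at 0 in 1 of the libraries, as are Pgk1, Idh3g and Me1, which were not compared.

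Transcript class differed between the libraries. Of the members' reads, 462 of 4283 in W1 lay on transcripts annotated with a retained intron (10.8%, interval 9.87 to 11.8), and 170 of 8818 in W2 (1.93%, interval 1.65 to 2.24). Over all genes the share was 2.70% in W1 and 1.14% in W2. Such reads occurred in 17 members in W1 and 9 in W2, but a few members held most of them. In W1, Pfkp had 144, Dlst 121 and Ogdh 45 of the 462, and in W2 Gpi1 had 79 of the 170. The intervals treat reads as independent and leave this out. Aldoa, Gapdh, Pgk1, Eno1, Idh3g and Ogdh had reads only on transcripts not annotated as protein coding. Of the 5 members higher in W1, Eno1 and Ogdh had all their reads there on retained-intron transcripts, and Hk1, Pfkp and Pfkfb3 had 21 of 29, 144 of 148 and 12 of 45. Restricted to protein-coding transcripts, 24 members could be compared, with a median log2 ratio of -1.07. Of these, 2 were higher in W1, Pfkp and Pfkfb3, and 13 in W2. Pfkp passed there on 4 reads in W1 and 2 in W2, on transcripts of different length. In that restriction 28.5% of all genes compared were higher in W1 and 34.2% in W2.

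Other enzymes of the same pathways were read for comparison. How far isoform overlap and sequence copies bear on these genes was not tested, so 0 reads cannot be read as absence. Of 48 such genes, 33 had reads and 26 were compared, with 6 higher in W1, 8 in W2 and 12 in neither, and a median log2 ratio of -0.27. Of all genes compared, 34.7% were higher in W1 and 32.9% in W2, so these counts are not read as a result about the pathways. The pyruvate dehydrogenase kinases Pdk2 and Pdk3 went the way of Pdk4, while the member Pdk1 was not compared. Pdk2 had 2.65 TPM in W1 and 21.2 TPM in W2, and Pdk3 had 9.99 TPM in W1 and 39.8 TPM in W2. The phosphatases that reverse their action, Pdp1 and Pdp2, lay within 2-fold. Mpc1 and Mpc2, the mitochondrial pyruvate carrier, had 0 reads in W1 and 4 and 17 reads in W2. Of the succinate dehydrogenase subunits, Sdhb (85.5 TPM in W1, 207 TPM in W2) and Sdhd (150 TPM in W1, 321 TPM in W2) were higher in W2, and Sdha and Sdhc lay within 2-fold. Also higher in W2 were Bpgm, which makes 2,3-bisphosphoglycerate, at 6.14 TPM in W1 and 22.3 TPM in W2, and Pfkfb1, at 0 in W1 and 2.51 TPM in W2.

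Higher in W1 were Tigar, a phosphatase of fructose 2,6-bisphosphate, at 4.61 TPM from 51 reads in W1 and 0 reads in W2, and the mitochondrial malic enzyme Me2, at 8.60 TPM in W1 and 1.47 TPM in W2. Galm, which interconverts the anomers of hexoses, had 7.84 TPM in W1 and 0 reads in W2. Minpp1, an inositol phosphate phosphatase that also acts on 2,3-bisphosphoglycerate, had 21.2 TPM in W1 and 3.25 TPM in W2. Tktl1 (20 reads in W1, 3 in W2) and Pck2 (4 reads in W1, 0 in W2) passed the rule on few reads. Among 7 regulators, Hif1a, the oxygen-sensitive activator of glycolytic genes, had 21.5 TPM from 52 reads in W1 and 0 reads in W2. With the floor of 3 reads that is 17.5-fold higher in W1. Its reads lay on shorter transcripts than those of Egln1, which had 15.5 TPM from 169 reads in W1. How far isoform overlap bears on the 0 reads of Hif1a in W2 was not tested, so they cannot be read as absence. The other 6 lay within 2-fold on the scale of TPM + 1, among them Epas1 at 161 TPM in W1 and 89.2 TPM in W2, and Myc at 14.1 TPM in W1 and 8.74 TPM in W2. Arnt, the partner of Hif1a, was also among them at 3.04 TPM in W1 and 1.68 TPM in W2, though its 33 reads in W1 and 4 in W2 give 8.31-fold by reads (interval 2.95 to 32.3).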

How the data were processed

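RNA-seq of 2 libraries, W1 and W2, was available as deposited tables of TPM and FPKM for 137767 Ensembl transcripts. Bowtie 0.12.2 and the builds mm8 and GRCm38 are listed, with no role stated, per the submitters' processing notes. Not given in the sources used here are the counting tool, its annotation and its strand setting. The deposited TPM equal the authors' FPKM times 1.00852 in W1 and 1.24567 in W2. The tables hold 0 other value columns.

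Identifiers were matched to GENCODE M21 (GRCm38), which may not be the authors' annotation. A total of 137654 matched, and 113 did not, holding 0.025% of TPM in W1 and 0.0066% in W2. TPM were summed by gene. Reads were recovered from FPKM times transcript length, which falls on whole multiples of the value of 1 read, giving an implied depth of 3055840 reads in W1 and 3800030 in W2. Within 0.1 read, 98.47% of transcripts in W1 and 98.07% in W2 came out whole. The recovered reads sum to 3065849 and 3826943, slightly more than the implied depth. With unassigned libraries and no replicate, no count test was run.

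The log2 ratio used a pseudocount of 1 TPM, a minimum of 1 TPM in at least 1 library and a 2-fold rule. Intervals are exact Clopper-Pearson intervals at 95% on reads, scaled to TPM, and a library with 0 reads was given a floor of 3 reads. The intervals cover counting error only, since no molecular identifiers are named. They leave out the choice of scale. The floor leaves out counting error of the other library's reads, so a fold taken from it is not a lower bound. Own 50-mers were counted over all listed transcripts. A sequence copy is a gene sharing at least 100 50-mers with a member. Every member is accounted for, and other pathway genes came from 1 list. Members and lists were chosen with earlier results of these data known. The steps were tested on simulated data. Alternatives changed the pseudocount, the minimum, the scale, the transcripts summed and the basis of isozyme shares. Sequences and annotation are those of GENCODE M21. The software was matplotlib 3.10.9, pandas 2.3.3, scipy 1.17.1 and numpy 2.4.6 under Python 3.11.15. Some items are not reported here.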

Additional observations from a re-analysis of the deposited data

How the results depend on the processing

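Across 12 alternatives to the processing used, the member median log2 ratio stayed between -0.47 and -1.07 and the count of members higher in W2 exceeded that in W1 in each. No called member changed sign. Hk2, Pfkp, Pfkfb3, Pdha1, Pdk4, Pgd, Suclg1 and Fh1 were past 2-fold in every alternative that could compare them. Over protein-coding transcripts, Pfkp rests on 4 reads of a 550-base transcript in W1 and 2 reads of a 4145-base transcript in W2. The restriction to protein-coding transcripts and the isozyme shares per own 50-mer and over coding transcripts were chosen after seeing the data.

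Where counts moved, they were as follows. Hk1, Pfkfb2, Tpi1, Eno1, Ldhb and Tkt, each at 0 in 1 library, and Gpi1, Aldoa, Idh3b and Ogdh lay within 2-fold with a pseudocount of 5. With it, 2 members were higher in W1 and 7 in W2, beside 16.8% and 19.9% of all genes. Preparatory glycolysis then had 1 higher in W1 and 1 in W2, the pentose phosphate pathway had 1 in W2, and 0 were left for the PFKFB regulators and lactate dehydrogenase in W2 and for payoff glycolysis and the TCA cycle in W1. With 1 TPM in both libraries, 2 members were higher in W1 and 9 in W2, beside 16.6% and 28.9% of all genes, with 1 in W1 for preparatory glycolysis, 1 in W2 each for pyruvate dehydrogenase with its kinases and the pentose phosphate pathway, and 0 for the PFKFB regulators in both, payoff glycolysis in W1 and lactate dehydrogenase in W2. With at least 20 reads, preparatory glycolysis had 2 in W2, and payoff glycolysis in W1 and lactate dehydrogenase in W2 had 0. In FPKM, in reads scaled to a common total and with the median ratio set to 0, the TCA cycle had 2 in W2 and the pentose phosphate pathway 1 in W1. Payoff glycolysis had 2 in W1 in reads scaled to a common total and with a pseudocount of 0.1. Without mitochondrial and ribosomal protein genes, payoff glycolysis and the enzymes linked to NADP, malate or citrate each had 1 in W2 and the TCA cycle 0 in W1. By the transcript with the most reads the TCA cycle had 2 in W1. Over transcripts with more than 500 own 50-mers, 0 were left for the PFKFB regulators and lactate dehydrogenase in W2 and for the TCA cycle in W1. Over protein-coding transcripts, 2 members were higher in W1, with 1 in preparatory glycolysis and 0 in payoff glycolysis and the TCA cycle. The alternatives with a higher minimum or fewer transcripts compare fewer genes. For the others the cause was not tested.

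By reads, the share of Hk1 in W1 was 32.6%, of Pfkp 41.8% in W1 and 1.15% in W2, and of Mdh1 99.7% in W1. By reads per own 50-mer, Hk1 was at 27.4% in W1, and Pfkp at 29.6% in W1 and 0.679% in W2. Over coding transcripts, Hk1 was at 14.7% in W1, Pfkp at 12.6% in W1 and 0.418% in W2, and Mdh1 at 100% in W1. Pdk4, in the pair with Pdk1 alone, was at 99.9% in W2. The coding shares of Pfkp rest on 4 reads in W1 and 2 in W2.

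No paired analysis was possible because both libraries are unassigned and neither has a replicate. For the same reason no library could be left out in turn. Depth limits the members with few reads: 26 members had at least 20 reads in 1 library, and the others rest on fewer.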
